A study of Danio rerio with 18 samples.

Results

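Histidine tRNAs are the nuclear-encoded tRNAs that bring histidine to the ribosome. They were taken as every nuclear entry of the abundance table that is named as a histidine tRNA, which gave 58 of the 2600 entries in the table, 2578 of which are nuclear. Of the 58 entries, 57 were single transcripts and 1 was a group, tRNA-His-GUG-1/4/11, whose reads could not be divided among its transcripts. All of them carry the anticodon GUG and so make up a single anticodon family, His-GUG, with 238 gene copies in the deposited table. The transcripts are isodecoders, which share an anticodon and differ in the rest of the tRNA body. The mitochondrial histidine tRNA is a separate molecule and was not included.

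tRNA-His reads the histidine codons CAU and CAC. It is set apart from other tRNAs by an extra guanosine at its 5′ end, which in eukaryotes is added after transcription by the enzyme Thg1 and is recognised by histidyl-tRNA synthetase, the enzyme that attaches histidine. The first base of its anticodon is among the few that can be replaced by the modified base queuosine. In early embryos translation begins with tRNAs laid down in the egg, and new tRNAs are made from the embryo's own genes by RNA polymerase III.

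Abundance was measured in 12 libraries of wild-type TLAB zebrafish, a strain derived from TL and AB fish, with 2 libraries at each of 6 stages. The stages were the egg before fertilization, at 0 hours post-fertilization (hpf), the blastula at 256-cell, which is 2.5 hpf, at 1000-cell (3 hpf) and sphere, 4 hpf, and the gastrula at shield, which is 6 hpf, and at bud, its end, 10 hpf. Eggs were not activated, embryos were unperturbed, and every library was made from a pool of whole eggs or embryos. Charging, the share of tRNA molecules with an amino acid attached, came from 6 other wild-type libraries, 3 from bud and 3 from sphere embryos. The labels of these 6 do not give the strain, and the study's methods name TLAB as the strain of its wild-type embryos. The libraries hold tRNA only, so the stage labels could not be checked against marker genes. Total counts were between 977425 and 10121680 per library, with the first egg library the shallowest, and histidine tRNAs had 25835 to 309474 counts. The replicate libraries of every stage differed by more than sampling noise over the histidine transcripts, with a chi-square per degree of freedom between 27.4 at bud and 177 at 256-cell.

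The family as a whole held between 3.26 and 4.34% of the nuclear tRNA pool, and no change between stages was called. It held 4.07 and 3.26% of nuclear tRNA counts in egg, 4.34 and 3.63% at 256-cell, 3.91 and 4.01% at 1000-cell, 3.73 and 3.89% at sphere, 3.43 and 3.69% at shield and 3.53 and 3.31% at bud. The egg libraries lay 0.806 percentage points apart, and both bud libraries fell between them. Stage means were 3.67% ± 0.57 in egg, 3.99% ± 0.505 at 256-cell, 3.96% ± 0.0687 at 1000-cell, 3.81% ± 0.112 at sphere, 3.56% ± 0.185 at shield and 3.42% ± 0.155 at bud (SD, n = 2 each). The Wilson 95% interval of a single library had a half-width of 0.0126 to 0.0392 percentage points, which covers counting error only. By share, the family ranked between the third and the eleventh place among 47 nuclear anticodon families, depending on the library. Its mean share over the 12 libraries was 3.74%, the sixth highest.

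**Figure D1:**
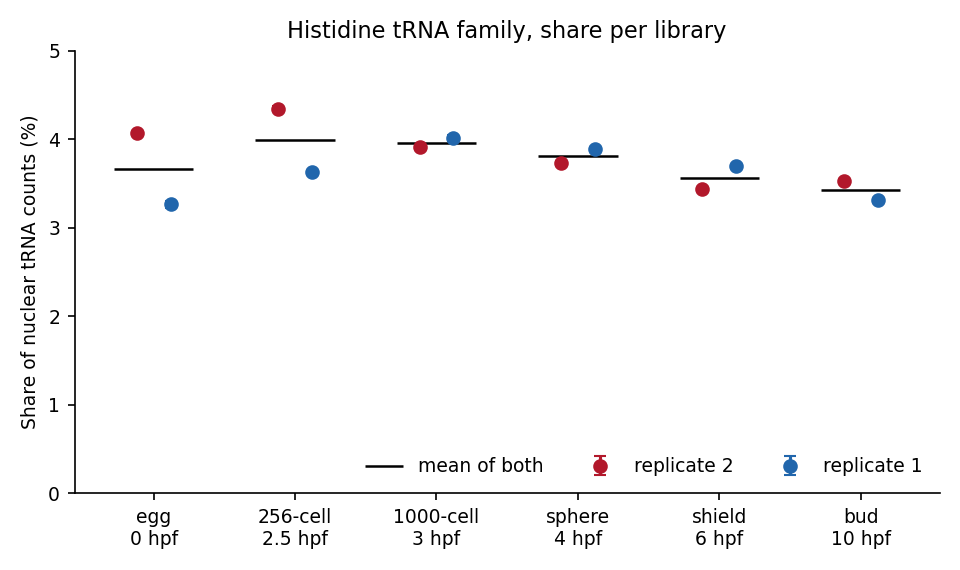
Share of nuclear tRNA counts (y axis, %, from 0) held by the histidine tRNA family at each stage (x axis). Each point is 1 library, red for replicate 2 and blue for replicate 1, the black line is the mean of both, and the Wilson 95% intervals are smaller than the points. The egg and 256-cell libraries lie furthest apart, at 4.07 and 3.26% and at 4.34 and 3.63%.

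The abundance of the family was compared between stages with the Wald test of DESeq2 on counts summed by anticodon. Against egg the log2 changes were 0.14 (95% interval -0.11 to 0.40) at 256-cell, 0.12 (-0.14 to 0.37) at 1000-cell and 0.05 (-0.21 to 0.30) at sphere. They were -0.03 (-0.29 to 0.22) at shield and -0.02 (-0.28 to 0.23) at bud. The adjusted p values of DESeq2 lay between 0.624 and 0.88, so no change from egg was called at any stage. Of the 47 families, 2.13% were called at 256-cell, 0% at 1000-cell, 4.26% at sphere, 17% at shield and 36.2% at bud. Between later stages the family also gave no call, with log2 changes of -0.08 for shield against sphere, 0.01 for bud against shield and -0.07 for bud against sphere. The DESeq2 adjusted p values were 0.915, 0.938 and 0.662, where 2.13%, 10.6% and 29.8% of families were called in the same 3 contrasts. These are relative levels in bulk samples, in which fewer cells of a type and less RNA per cell cannot be told apart.

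The 3 families whose normalized counts ran most like those of His-GUG over the 12 libraries were Arg-CCG, Ala-CGC and iMet-CAU. On the log2(normalized count + 1) scale the Pearson r was 0.697 for Arg-CCG, an arginine family, 0.523 for Ala-CGC, an alanine family, and 0.520 for the initiator methionine family iMet-CAU (n = 12 libraries). All families share the same libraries and their depth, and the values are given as a description.

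Within the family a single isodecoder, tRNA-His-GUG-2, held most of the counts. It made up 64.3 and 59.1% of histidine tRNA counts in egg, 61.5 and 67.3% at 256-cell, 64.4 and 62.5% at 1000-cell, 63.3 and 67.0% at sphere, 66.8 and 64.9% at shield and 71.6 and 73.2% at bud. Both bud libraries lay above every library of the earlier stages. A further 9 members had a mean share of at least 1%, namely tRNA-His-GUG-7 (4.52%), GUG-13 (4.39%), GUG-29 (3.76%), GUG-8 (3.07%), GUG-48 (3.02%), GUG-18 (2.52%), GUG-9 (2.29%), GUG-16 (1.83%) and GUG-28 (1.16%). Together these 10 members held between 90.6 and 94.0% of the family's counts in a library. The other 48 entries, tRNA-His-GUG-1/4/11 with a mean of 0.439% included, shared between 6.02 and 9.35%. Counts were not divided by length, as tRNAs of a family are of nearly equal length.

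A transcript was counted as detected when it reached 0.005% of nuclear counts in at least 1 library. Of the 57 single transcripts, 34 were detected, and these are among the 607 detected nuclear transcripts of the whole table. The 23 that were not detected had at most 350 counts in any library, and tRNA-His-GUG-14 had 0 counts in all 12, which allows a share of up to 0.000379% of nuclear counts in the library with the fewest and 3.52e-05% in that with the most. The limit only decides which transcripts are counted, since all single transcripts were fitted. Of the 34, GUG-6, GUG-25, GUG-35 and GUG-47 reached it in no egg library, GUG-25, GUG-35 and GUG-52 in replicate 2 libraries only, and GUG-36 in a replicate 1 library only. With the limit set on the mean over the 12 libraries, a choice made after seeing the data, 27 histidine transcripts and 465 nuclear transcripts in all were counted. Transcripts that differ by few bases can exchange reads when a cluster is divided, so the family sum is firmer than any one transcript's value.

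The isodecoder with the most gene copies was also the most abundant, and below it the shares were only weakly ordered by copies. tRNA-His-GUG-2 has 127 of the 238 copies, or 53.4%, and a mean of 65.5% of the counts. Of the 37 single transcripts with 1 copy, the lowest copy number, 19 were detected. The mean shares of all 37 in the family ran from 0 to 4.39% with a median of 0.0938%. The highest of these were GUG-13, GUG-29, GUG-8, GUG-48 and GUG-28, each with 1 copy. Transcripts with more copies went both ways. GUG-7, with 5 copies, held 4.52%, more than any of these. GUG-9, with 11 copies, held 2.29%, and GUG-35, with 5 copies, held 0.0913%. GUG-27, with 8 copies, held 0.0681% and was not detected, and GUG-44, with 5 copies, held 0.00555% (both named after their values were seen). Across the 57 single transcripts, which share all libraries, copies and mean share had a Pearson r of 0.988 and a Spearman rho of 0.293. Without GUG-2 the values over 56 transcripts were 0.206 and 0.248, so the high r rested on that transcript. The family as a whole had 2.92% of the 8149 nuclear gene copies that the table gives, against its 3.74% of nuclear counts.

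**Figure D2:**
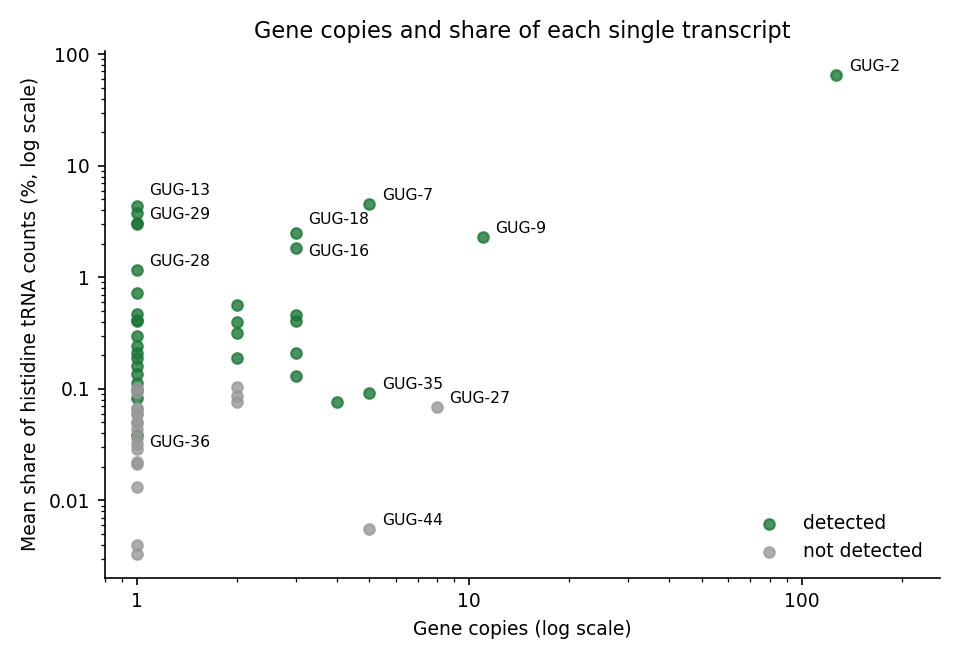
Gene copies (x axis, log scale) and mean share of histidine tRNA counts over 12 libraries (y axis, %, log scale). Each point is a single transcript, green where detected and grey where not, and the transcript with no counts is left out. tRNA-His-GUG-2 stands alone at 127 copies and 65.5%, and transcripts with 1 copy spread up to 4.39%.

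More histidine isodecoders were called against egg at shield and bud than at the earlier stages, but as a share they were no more frequent there than among all transcripts. In the transcript fit, 1 of 34 detected histidine transcripts was called at 256-cell (DESeq2 adjusted p of at most 0.05), where 0.988% of all 607 were called. At 1000-cell 0 were called by DESeq2 and 0 by edgeR, where DESeq2 called 0.494% of all. There 5 of the 34 had an unadjusted DESeq2 p under 0.05, a limit at which the share of all transcripts was not computed. At sphere 1 was called, against 0.824% of all. At shield 5 were called (1 higher, 4 lower), which is 14.7% against 15.5% of all detected transcripts (8.07% higher, 7.41% lower). At bud 5 were called (2 higher, 3 lower), again 14.7% but against 27.2% of all (16% higher, 11.2% lower). With total nuclear counts as size factors there were 8 at bud, 1 higher and 7 lower, but under that scaling the median log2 change of all 607 was -0.37. By mean detection, which leaves out GUG-35, 0 of 27 were called at 256-cell, 1000-cell and sphere, and 4 at shield and 4 at bud, each 14.8%, against 16.8% of 465 at shield and 29.2% at bud. The median log2 change of the 34 was -0.0044 at shield and -0.0039 at bud, and that of all 607 was -0.05 at shield and -0.0019 at bud. The counts rested on single libraries, egg replicate 1 above all. Without it 0 histidine transcripts were called at 256-cell, sphere and shield and 3 at bud, whereas without egg replicate 2 the counts were 2 at 256-cell, 3 at 1000-cell, 2 at sphere and 9 at bud. At 256-cell 0 were called without 256-cell replicate 2, which left 1 at 1000-cell. At sphere there were 2 without sphere replicate 1 and 0 without sphere replicate 2. At shield there were 3 without shield replicate 1 and 2 without shield replicate 2. At bud there were 2 without bud replicate 2 and 3 without any single 1000-cell, sphere or shield library or without bud replicate 1. edgeR called 0 at 256-cell and sphere, 3 at shield and 5 at bud. The 5 at bud were 3 higher and 2 lower, and 4 of them were also called by DESeq2 in the same direction. With replicate number added to the DESeq2 model there were 2 at 256-cell, 2 at 1000-cell, 2 at sphere, 5 at shield and 7 at bud. The share of all transcripts called was computed for the main fit and for mean detection only. Counts from the other fits therefore cannot be set against a general rate.

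Between later stages 0 histidine transcripts were called by DESeq2, where 1.65% of all transcripts were called for shield against sphere, 10.5% for bud against shield and 19.9% for bud against sphere. At an unadjusted DESeq2 p under 0.05 there were 0, 2 and 2 of 34 in these contrasts, and the share of all transcripts at that limit was not computed. edgeR called 0 in each. For bud against sphere, however, DESeq2 called 3 with total nuclear counts as size factors, all lower. Under that scaling the median log2 change of all 607 transcripts was -0.43, and the share of all called was not computed. DESeq2 called 1, higher, both with only the 2 stages in the fit and with undetected transcripts removed before it. With replicate number in the model DESeq2 also called 1 for bud against sphere.

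The only isodecoder called as higher before bud was tRNA-His-GUG-35, a scarce transcript that was counted as detected only through embryo libraries, where it is high, so that the limit itself favoured a difference from egg. It had 14.8 and 6.42 normalized counts in egg, 152 and 53.4 at 256-cell, 121 and 45.2 at 1000-cell, 174 and 84.3 at sphere, 143 and 83.5 at shield and 189.9 and 59.5 at bud. Every embryo library lay above both egg libraries. The log2 rise over egg was 3.17 ± 0.84 at 256-cell (SE, DESeq2 adjusted p 0.0296), 3.504 ± 0.85 at sphere (0.00621), 3.32 ± 0.84 at shield (0.00239) and 3.46 ± 0.84 at bud (0.000744). At 1000-cell the value was 2.88 ± 0.85 and did not pass (DESeq2 adjusted p 0.0783). The egg level rests on 13 counts in both libraries together, 11 and 2, and with edgeR the adjusted p was 0.241 at 256-cell and 0.11 at sphere. The calls at 256-cell and sphere were lost without either egg library, at 2.79 and 3.99 for 256-cell and 3.13 and 4.33 for sphere, and likewise without 256-cell replicate 2 (2.22) and without sphere replicate 2 (2.90). At shield the call was lost without egg replicate 1 (2.94, DESeq2 adjusted p 0.051) or shield replicate 2 (2.87, adjusted p 0.0678), and at bud without bud replicate 2 (2.39, adjusted p 0.0954).

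tRNA-His-GUG-29, a 1-copy isodecoder and one of the more abundant members, was called as higher at bud than in egg. Its normalized counts were 3833 and 2597 in egg, 4284 and 3424 at 256-cell, 3622 and 3300 at 1000-cell, 3515 and 3597 at sphere, 3709 and 3766 at shield and 5285 and 5146 at bud. On this scale the bud libraries stood above all others. As a share of nuclear counts both bud libraries were at 0.152%, below 256-cell replicate 2 (0.159%) and shield replicate 1 (0.153%). The log2 rise of bud over egg was 0.70 ± 0.25 (SE, DESeq2 adjusted p 0.0345), or 0.45 without egg replicate 1 (adjusted p 0.331) and 1.01 without egg replicate 2. The call was also lost without any single library of 1000-cell, sphere, shield or bud, with values of 0.69 to 0.73 and adjusted p values of 0.0676 to 0.255. It depended on scaling too. With total nuclear counts as size factors the median of all 607 transcripts moved by -0.37 for bud against egg, and GUG-29 was at 0.32 (DESeq2 adjusted p 0.358).

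tRNA-His-GUG-2 had its highest normalized counts at bud, and its rise over egg was called by edgeR but not in the main fit. It had 87738 and 82205 at bud, against 71118 and 48995 in egg, with 59020 to 71928 in all other libraries. The log2 change of bud over egg was 0.50 ± 0.24 (SE, DESeq2 adjusted p 0.142), and the edgeR value was 0.62 (adjusted p 0.0412). Against shield it was 0.52 ± 0.24 (DESeq2 adjusted p 0.332) and against sphere 0.39 ± 0.24 (adjusted p 0.293). With total nuclear counts as size factors, the value against egg was 0.12. As a share of nuclear counts GUG-2 was at 2.53 and 2.43% at bud, inside the 1.93 to 2.67% of the other libraries. The transcript and family fits each had their own size factors, so this change and that of the family are on different scales.

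A lower level than in egg was called at shield, bud or both for 4 isodecoders, GUG-8, GUG-15, GUG-16 and GUG-17. tRNA-His-GUG-8 had 4069 and 4766 normalized counts in egg, 3278 and 3203 at 256-cell, 2985 and 3416 at 1000-cell, 2594 and 3251 at sphere, 2296 and 2374 at shield and 2135 and 2270 at bud. All embryo libraries lay below both egg libraries, and the bud libraries were the lowest. Its log2 change was -0.92 ± 0.20 at shield (SE, DESeq2 adjusted p 0.000359) and -1.003 ± 0.20 at bud (adjusted p 2.29e-05). The call at bud was kept in all 23 alternatives that were run, with values of -1.39 to -0.88, whereas at shield it was lost without egg replicate 1 (-0.81, DESeq2 adjusted p 0.0559) and in the fit of egg and shield alone (-0.90, adjusted p 0.147).

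tRNA-His-GUG-15 had 693 and 786 normalized counts in egg, 339 and 429.8 at 256-cell, 343 and 442 at 1000-cell, 249 and 406 at sphere, 242 and 335 at shield and 251 and 303 at bud. Both egg libraries stood well above all others. The log2 change was -1.36 ± 0.33 at shield (SE, DESeq2 adjusted p 0.00141) and -1.42 ± 0.33 at bud (0.000414), whereas -0.94 at 256-cell, -0.91 at 1000-cell and -1.17 at sphere did not pass (0.137, 0.22 and 0.0541). The call at shield was lost without egg replicate 1, at -1.27 (DESeq2 adjusted p 0.0548), and without shield replicate 2, at -1.15 (adjusted p 0.0705).

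For tRNA-His-GUG-17 the 2 egg libraries did not match each other. They had 514 and 1152 normalized counts, and the 10 embryo libraries had 310 to 424. The log2 change was -1.33 ± 0.36 at shield (SE, DESeq2 adjusted p 0.00628) and -1.004 ± 0.37 at bud (0.0432). Values of -1.15 at 256-cell, -1.19 at 1000-cell and -1.18 at sphere were of similar size but did not pass (DESeq2 adjusted p 0.0936, 0.0895 and 0.0991). Without egg replicate 1, the library with 1152, the values were -0.65 at shield and -0.31 at bud, with adjusted p values of 0.232 and 0.662, and without egg replicate 2 they were -1.81 and -1.48. The call at shield was lost without shield replicate 1 as well (-1.24), and the call at bud was kept only when egg replicate 2 was the library left out. With edgeR this transcript was called at neither shield nor bud.

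tRNA-His-GUG-16 had 1208 and 1486 normalized counts at shield, against 1987 and 2860 in egg, and the log2 change was -0.84 ± 0.28 (SE, DESeq2 adjusted p 0.0308). At bud it had 1366 and 1677, a change of -0.67 that was not called (adjusted p 0.0886). Its call at shield was lost without egg replicate 1, where the value was -0.57 (adjusted p 0.36), without any single library of 1000-cell, shield or bud, with adjusted p values of 0.0691 to 0.275, and with edgeR (-0.76, adjusted p 0.132).

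The remaining members with a share of at least 1% gave no call against egg in the main fit, which has no term for replicate number. At bud, their log2 changes ran from -0.62 for GUG-13 to 0.44 for GUG-48, with GUG-18 at -0.51, GUG-9 at -0.23, GUG-7 at -0.07 and GUG-28 at 0.03. From egg to bud GUG-13 fell within both replicate numbers, from 6670 to 4206 in replicate 2 and from 3373 to 2317 in replicate 1. Its difference between the replicate numbers, given below, counts as spread in the main fit.

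**Figure D3:**
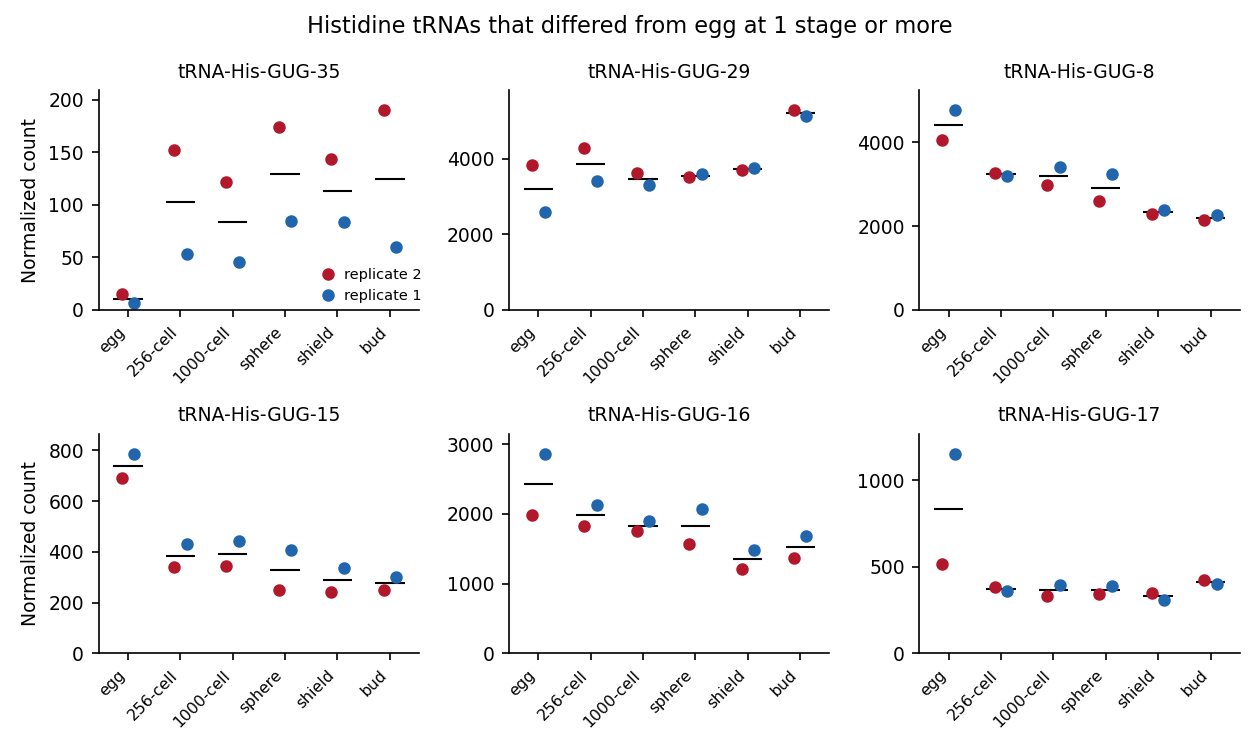
Normalized counts (y axis, from 0) at the 6 stages (x axis) for the 6 histidine transcripts that were called against egg at 1 stage or more. Points are libraries, red for replicate 2 and blue for replicate 1, and black lines are the means of both. tRNA-His-GUG-35 lies above egg in every embryo library without a steady rise among them. GUG-29 is highest at bud, at 5285 and 5146, and in GUG-17 a single egg library, at 1152, stands apart.

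The titles number the libraries of each stage 1 and 2, and the difference between the numbers was tested over all 12 libraries with stage in the model. The labels do not say what libraries of 1 number share across stages, and the study's methods say only that replicate samples were collected on different days. Of the 34 detected histidine transcripts, 8 differed between the numbers, 6 higher and 2 lower in replicate 2. This is 23.5%, against 11.7% of all 607 detected transcripts (5.77% higher, 5.93% lower). edgeR called 7 of the 8, all in the same direction. GUG-35 and GUG-36 were counted only through libraries of the number in which they are high. By mean detection, which leaves both out, 6 of 27 were called, or 22.2% against 11.2% of 465.

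tRNA-His-GUG-13, the third most abundant member, was higher in replicate 2 at all 6 stages. Its normalized counts were 6670, 6818, 6050, 6002, 4181 and 4206 in replicate 2, from egg to bud, against 3373, 3497, 3825, 3827, 2742 and 2317 in replicate 1. The lowest library of replicate 2 stood above the highest of replicate 1. The log2 difference was 0.79 ± 0.11 (SE, DESeq2 adjusted p 4.92e-10), between 0.61 and 0.98 at single stages.

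The scarcer GUG-35, GUG-3, GUG-43, GUG-10 and GUG-28 were also higher in replicate 2 at every stage. GUG-35, counted through replicate 2 libraries only, had a log2 difference of 1.27 ± 0.21 (SE, DESeq2 adjusted p 2.51e-07). GUG-3 had 194 to 364 normalized counts in replicate 2, against 93.1 to 166 in replicate 1, with a log2 difference of 1.07 ± 0.21 (DESeq2 adjusted p 2.57e-05). GUG-43 had 796 to 1061 in replicate 2, against 440 to 686 in replicate 1, a difference of 0.76 ± 0.13 (7.22e-07). For GUG-3 and GUG-43 the libraries of replicate 2 did not overlap with those of replicate 1. GUG-10 differed by 0.73 ± 0.15 and GUG-28 by 0.57 ± 0.12, with DESeq2 adjusted p values of 4.25e-05 and 7.33e-05.

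tRNA-His-GUG-36, with 1 gene copy, was nearly absent from replicate 2. Its counts were 0, 1, 1, 1, 7 and 1 in replicate 2, from egg to bud, against 78, 148, 22, 29, 25 and 31 in replicate 1. The sums were 11 counts in replicate 2 and 333 in replicate 1. At every stage the count of replicate 2 was below that of replicate 1, and shield came closest. The log2 difference in the fit was -4.85 ± 0.73 (SE, DESeq2 adjusted p 4.05e-09), a size that depends on how so few counts are treated. GUG-36 was counted as detected through its highest share, 0.00986% of nuclear counts in egg replicate 1.

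tRNA-His-GUG-15 was lower in replicate 2 at every stage, by 0.18 to 0.70 on the log2(normalized count + 1) scale, and its log2 difference was -0.39 ± 0.13 (SE, DESeq2 adjusted p 0.0354). The call was lost in 19 of 22 alternatives, with adjusted p values up to 0.305. The other 7 calls held in all 22 alternatives run for them, except that GUG-35 and GUG-36 were not counted by mean detection.

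For the family as a whole no difference between the numbers was called. The log2 difference of the family sum was 0.08 (95% interval -0.06 to 0.22, DESeq2 adjusted p 0.621), where 8.51% of families were called. Replicate 2 minus replicate 1 in family share was 0.806 percentage points in egg, 0.714 at 256-cell, -0.0972 at 1000-cell, -0.159 at sphere, -0.261 at shield and 0.22 at bud. The mean was 0.204 points, with replicate 2 higher at 3 of 6 stages and a two-sided exact permutation p of 0.406, where the smallest p that 64 sign changes allow is 0.0312.

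A second set of isodecoders varied between libraries in a way that the numbers do not describe. tRNA-His-GUG-48, the sixth most abundant member, had 5753 normalized counts in 256-cell replicate 2, 4800 in 1000-cell replicate 1 and 4643 in shield replicate 1, and 1743 to 3219 in the other 9 libraries. The same 3 libraries were the highest for GUG-31, at 1091, 862 and 834, against 216 to 484 in the other 9. A pattern of replicate 2 above replicate 1 by more than 0.5 at 256-cell, and below it by more than 0.5 at 1000-cell and shield, on the log2(normalized count + 1) scale, was met by 6 of the 34 transcripts. These were GUG-12, GUG-19, GUG-31, GUG-40, GUG-47 and GUG-48. That is 17.6%, against 8.24% of all 607. The pattern was chosen after the values were seen, so no test was made, and what sets these 3 libraries apart was not tested.

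**Figure D4:**
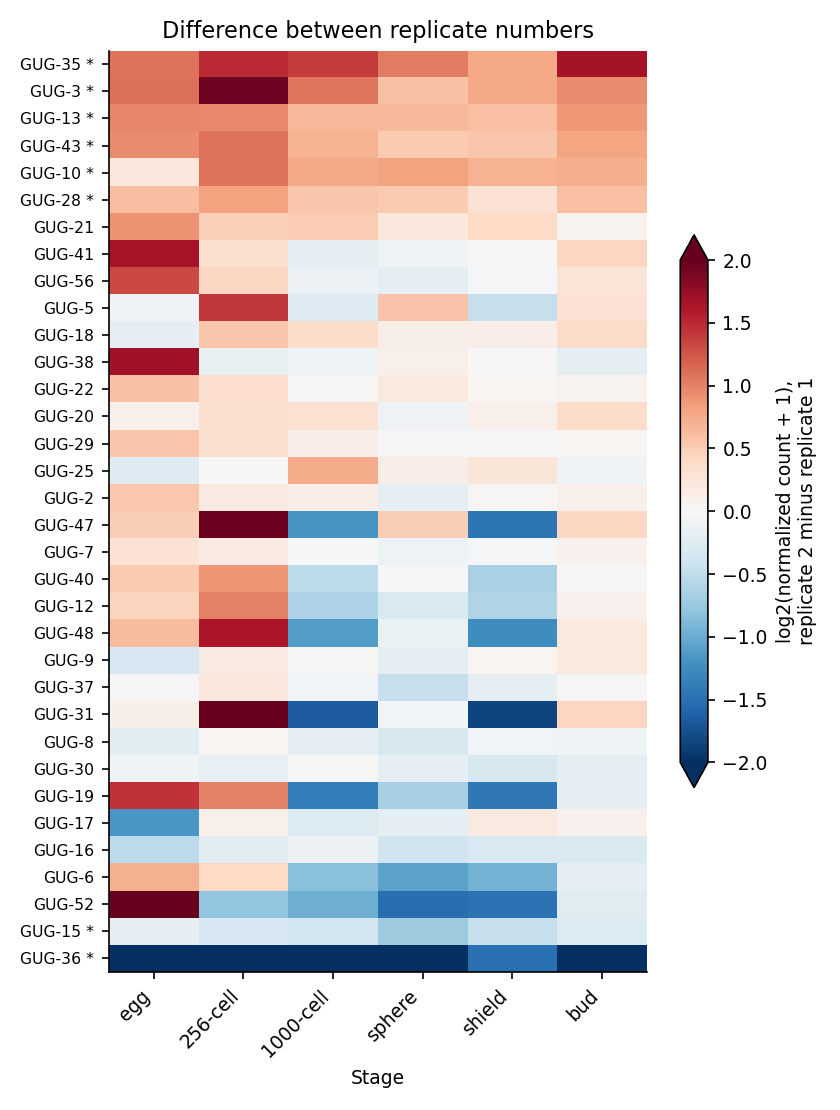
Replicate 2 minus replicate 1 in log2(normalized count + 1) for the 34 detected histidine transcripts (rows, sorted by their mean difference) at the 6 stages (columns). Red is higher in replicate 2, blue is lower, colours stop at -2.0 and 2.0, and stars mark the 8 transcripts called by DESeq2. The top rows are red at all 6 stages, and GUG-48, GUG-31 and GUG-47 change colour between 256-cell and 1000-cell.

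Charging of histidine tRNA was compared between the end of gastrulation and the blastula. The charged fraction of His-GUG was 0.811, 0.862 and 0.806 in the bud libraries, against 0.801, 0.830 and 0.835 in the sphere libraries. The groups overlapped, with the highest value at bud and the lowest at sphere. The bud library with 0.862 also had the highest median over all families, 0.922, against 0.878 and 0.883 in the other bud libraries. The means of His-GUG were 0.827 ± 0.0307 at bud and 0.822 ± 0.0185 at sphere (SD, n = 3 each), a difference of 0.0046 with a limma 95% interval of -0.0314 to 0.0406. The limma adjusted p over 46 families was 0.997, and 0% of families were called. An exact permutation test over the 6 libraries gave a two-sided p of 0.8, and 0.1 is the smallest p that 3 against 3 can give.

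Histidine tRNA was among the least charged families at both stages. By mean fraction it was the third lowest of 46 at bud and at sphere, with family medians of 0.893 at bud and 0.901 at sphere. In single libraries it ranked 5, 3 and 3 from the lowest at bud and 2, 3 and 8 at sphere. At bud only Ala-AGC (0.806) and Phe-GAA (0.808) were lower. No depth came with the deposited fractions, so their counting error is unknown and the rank is a description. Weighted by the stage mean of charging, histidine tRNA made up 3.31 and 3.10% of the charged pool at bud, against 3.46 and 3.61% at sphere. Without the weighting its share of the same 46 families was 3.53 and 3.31% at bud and 3.73 and 3.89% at sphere.

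**Figure D5:**
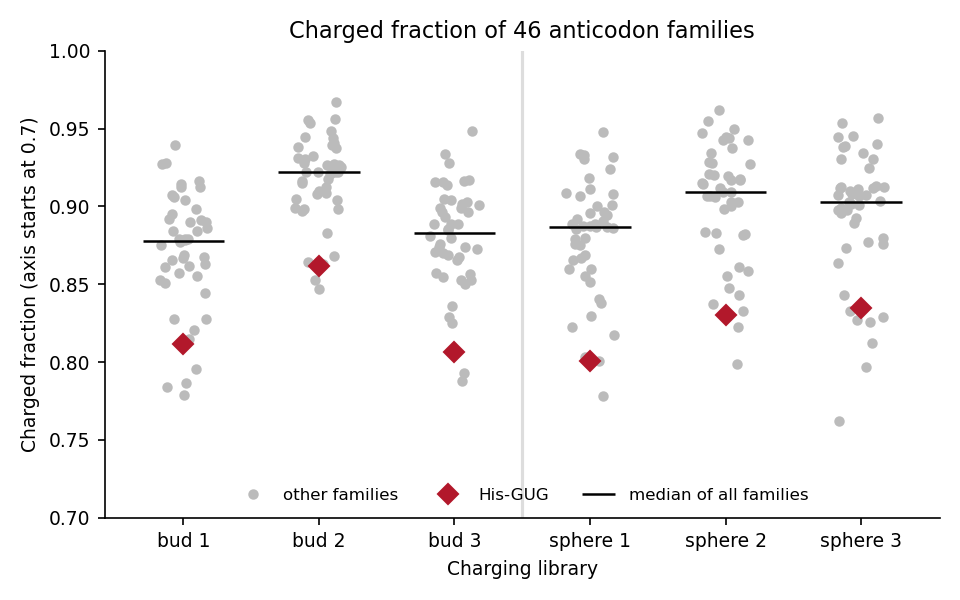
Charged fraction (y axis, starting at 0.7) of 46 anticodon families in 3 bud and 3 sphere libraries (x axis). The red diamond is His-GUG, grey points are the other families and the black line is the median of all families in a library. His-GUG lies below the median in all 6 libraries, between 0.801 and 0.862.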

How the data were processed

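For abundance, RNA was deacylated, the tRNA size range was cut from a gel and a group II intron reverse transcriptase made the cDNA. The authors removed adapters with cutadapt 3.5, and mim-tRNAseq then aligned reads with GSNAP, tolerating mismatches at modified bases, to clustered GtRNAdb tRNAs of GRCz11 with a 5′ G added to tRNA-His, and then divided the reads of clusters among transcripts. The deposited abundance values are raw counts, in whole reads with a unique assignment, for each transcript, beside its gene copies. For charging, the authors oxidized RNA kept under mildly acidic conditions, and the deposited values are the charged fraction per anticodon family.

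Nuclear single transcripts, and nuclear counts summed by anticodon, were each fitted with DESeq2 1.42.0 (R 4.3.3, Wald test, median-of-ratios size factors, default independent filtering), with stage as the only term. The numbers were compared in a model with stage and replicate. p values are Benjamini-Hochberg adjusted over the features fitted, less those that DESeq2's independent filtering removed, and called at 0.05 or less. Size factors were estimated in each fit by itself, and normalized counts are counts divided by the size factors of their own fit. Charged fractions were tested with limma 3.58.1 over 46 families. Alternatives used edgeR 4.0.16, other scalings and filters, fewer libraries and a replicate block. The test scripts were tested on simulated data. All per-sample columns were mapped, and 0 were left unmapped.

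Named transcripts were those with a mean share of at least 1% of the family, those called in any stage contrast, those called between replicate numbers, the highest and lowest copy numbers, and the 3 families with the most similar profile. Members and lists were chosen with earlier results of these data known. Each library is a separate pool of eggs or embryos. No tRNA sequences or positions were used here.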

Additional observations from a re-analysis of the deposited data

How the results depend on the processing

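Each value was recomputed under other tests, scalings, filters and sets of libraries, which gave 906 alternative values for 54 results, and 733 of these kept their direction and their side of the threshold or stayed near the main value. Counts of called histidine transcripts moved by over 1.5 times as follows, and the causes were not tested except where a stricter threshold leaves fewer transcripts to call. With edgeR they were 0 at 256-cell, 0 at sphere and 3 at shield against egg. With total nuclear counts as size factors they were 8 at bud against egg (1 higher, 7 lower) and 3 at bud against sphere (all lower). Under that scaling the median log2 change of all 607 transcripts was -0.37 for bud against egg and -0.43 for bud against sphere. With only the 2 stages compared in the fit the counts were 0 at 256-cell, 2 at shield, 3 at bud and 1 for bud against sphere. With a detection threshold of 0.05% they were 0 at 256-cell, 0 at sphere, 2 at shield and 2 at bud. With undetected transcripts removed before the fit they were 0 at 256-cell, 4 at sphere and 1 for bud against sphere, and DESeq2 gave no adjusted p for tRNA-His-GUG-35 at 256-cell. With detection by the mean over all libraries, which leaves out tRNA-His-GUG-35, they were 0 at 256-cell and 0 at sphere. That setting and other settings of DESeq2's independent filtering were chosen after seeing the data. Filtering at 0.05 gave 0 at 256-cell, and without filtering the counts were 0 at 256-cell and 3 at bud. Leaving out 1 library at a time gave 0 to 2 calls at 256-cell, 0 to 3 at 1000-cell, 0 to 2 at sphere, 0 to 6 at shield and 2 to 9 at bud, and 7 or 8 for replicate number. A stage left with 1 library was assumed to vary like the other stages. Shares over all transcripts were computed for the main fit and for mean detection only.

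The family was not called in any contrast under any alternative run. Its log2 change of bud against shield, 0.01 as reported, turned to -0.0323 with edgeR, -0.0323 with TMM size factors, -0.0578 with total counts, -0.0081 with only the 2 stages and -0.0342 with single transcripts only, and that of sphere against egg to -0.0108 with only the 2 stages. Leaving out 1 library at a time, the family ranged from -0.0191 to 0.30 at 256-cell, -0.0347 to 0.28 at 1000-cell, -0.11 to 0.21 at sphere, -0.18 to 0.13 at shield and -0.17 to 0.15 at bud against egg, and from -0.0405 to 0.0713 for bud against shield. tRNA-His-GUG-2 for bud against sphere turned to -0.0027 with total counts. With all tRNA counts as the denominator the family share was 3.04% in egg, 3.30% at 256-cell, 3.28% at 1000-cell, 3.18% at sphere, 3.14% at shield and 3.14% at bud. With single transcripts only it was 4.97%, 5.53%, 5.48%, 5.17%, 4.84% and 4.64% in the same order. The charging difference ranged from -0.0131 to 0.0147 when 1 library was left out. The fit with mitochondrial families in the charging table was not run, because that table holds nuclear families only.

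Whether replicate numbers pair libraries was checked by correlating replicate 2 minus replicate 1 between stages over 607 transcripts. It was above 0.1 in 13 of 15 pairs of stages and ran from -0.17 for 256-cell and shield to 0.858 for 1000-cell and shield. Over the 34 histidine transcripts alone it ran from 0.153 to 0.915. Not every pair was positive over the 607, and the labels name nothing that libraries of 1 number share. The main fit therefore left the numbers out, and a steady difference between them adds to the spread in that fit. With the replicate block the counts were 2 at 256-cell, 2 at 1000-cell, 2 at sphere, 5 at shield and 7 at bud against egg and 1 for bud against sphere, and the charging difference stayed at 0.0046. Depth limits the scarce members most: tRNA-His-GUG-35 had 13 counts in the egg libraries together.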
